A study of Mus musculus with 4 samples.

Results

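The regions described here are those that the deposited table links by gene name to 10 components of the canonical Wnt pathway: the frizzled receptors Fzd1, Fzd4 and Fzd7, the co-receptors Lrp5 and Lrp6, the destruction complex genes Axin1, Axin2, Apc and Gsk3b, and the nuclear factor Tcf7l2. All 10 genes had a linked region, and they had 11 in all, of the 35019 regions in the table. The assay was ATAC-seq, in which Tn5 transposase cuts accessible DNA, on quiescent satellite cells isolated by flow cytometry. These are the resting stem cells of skeletal muscle. The cells came from mdx mice, which carry a mutation in the dystrophin gene Dmd and model Duchenne muscular dystrophy, or from wild type mice. There were 2 libraries per group, 4 in all, numbered 1 and 2 in each. According to the design text 3 mice stood for each condition. Neither the age of the mice nor their background strain is given in the sources used here. Nothing in the labels ties a library to its own animal, so p-values measure the spread between libraries, which may be technical.

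Wnt proteins bind a frizzled receptor together with Lrp5 or Lrp6. In the absence of Wnt, a cytoplasmic complex built on Axin and Apc lets the kinase Gsk3b mark beta-catenin for destruction. Receptor engagement disables this complex, and beta-catenin then enters the nucleus and activates genes through factors of the TCF/LEF family such as Tcf7l2. In muscle, Wnt signalling takes part in satellite cell self-renewal, in the differentiation of their progeny and, in dystrophic and aged muscle, in fibrosis. Accessibility at a promoter is not a measure of the activity of the pathway or of the amount of RNA or protein.

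Values are scaled reads per region, meaning reads times a factor that the authors applied to each library, rounded. Undoing that factor gave between 3208475 and 3693096 reads over all regions in 3 of the libraries and 8165050 in wild type replicate 2, which therefore had the smallest counting error. A region is called a promoter region where it comes within 1 kb of the start of its gene. These regions took up 52.8% and 57.2% of nuclear reads in the mdx pair of libraries, against 64.2% and 61.1% in the wild type pair. Promoters as a class were accordingly lower in mdx, with a median log2 fold change of -0.25 over 11292 tested promoter regions, against 0.19 over 21868 distal ones. The part of this shift in the results below was not tested, and each member promoter is given also relative to the promoter median. Among the cell type markers, 9 of 12 satellite cell genes had a promoter region, with a summed value of 1422 and 1540 in mdx and 1821 and 1616 in wild type. Cdh15, Itga7 and Vcam1 had none. For leukocytes 0 of 8 marker genes had one, and for endothelial cells 1 of 8. For fibro-adipogenic progenitors, mesenchymal cells that lie between muscle fibres, 6 of 10 had one (Pdgfra and Ly6a did not), and their summed value was 386 in both mdx libraries and 241 and 262 in wild type. For pericytes and smooth muscle 3 of 6 had one, with sums of 249 to 309 in mdx and 194 to 253 in wild type. Myofibre markers had one for 2 of 7 genes, with sums of 318 and 461 in mdx and 519 and 437 in wild type. Schwann cell markers had one for 1 of 5, at 15 and 13 in mdx and 24 and 16 in wild type. The part of these cells in the results below was not tested.

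Of the 11 regions, 10 were promoter regions, from 9 genes, and 1, linked to Lrp5, lay inside the gene away from its start. Promoter sequences were matched by symbol in RefSeq (GRCm38.p6, the build of mm10) for 6 of the 10 genes: Fzd1, Fzd4, Fzd7, Axin2, Gsk3b and Tcf7l2. The 250 bases before a RefSeq start are shown for 4 of them. For Axin2 this is the deposited start, and the outermost RefSeq start lies 2521 bp upstream of it. Fzd4 is the member whose promoter passed the test below on the deposited scaling, and Fzd7 and Gsk3b had the next smallest p-values. Axin2 encodes a component that beta-catenin itself induces. The windows are chr7:89404116-89404365 (Fzd4, + strand), chr1:59481897-59482146 (Fzd7, + strand), chr16:38088751-38089000 (Gsk3b, + strand) and chr11:108920099-108920348 (Axin2, + strand). Capitals mark TCAAAG, the core letters bound by TCF/LEF factors, and GGGCGG, the GC box of Sp factors, each on either strand.
Fzd4: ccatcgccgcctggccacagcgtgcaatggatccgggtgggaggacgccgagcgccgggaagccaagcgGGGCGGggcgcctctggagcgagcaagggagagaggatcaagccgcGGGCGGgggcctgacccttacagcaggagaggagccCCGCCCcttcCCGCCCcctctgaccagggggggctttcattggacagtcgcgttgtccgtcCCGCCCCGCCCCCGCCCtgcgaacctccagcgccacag
Fzd7: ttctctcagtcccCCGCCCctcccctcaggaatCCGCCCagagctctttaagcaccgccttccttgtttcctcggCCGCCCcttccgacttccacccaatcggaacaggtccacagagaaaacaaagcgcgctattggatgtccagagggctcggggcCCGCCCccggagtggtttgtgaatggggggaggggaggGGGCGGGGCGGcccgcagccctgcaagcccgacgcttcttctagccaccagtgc
Gsk3b: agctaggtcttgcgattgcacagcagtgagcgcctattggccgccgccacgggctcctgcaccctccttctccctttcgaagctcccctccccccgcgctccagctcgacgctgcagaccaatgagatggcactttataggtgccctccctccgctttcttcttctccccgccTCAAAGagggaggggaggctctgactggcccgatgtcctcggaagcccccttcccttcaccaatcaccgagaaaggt
Axin2: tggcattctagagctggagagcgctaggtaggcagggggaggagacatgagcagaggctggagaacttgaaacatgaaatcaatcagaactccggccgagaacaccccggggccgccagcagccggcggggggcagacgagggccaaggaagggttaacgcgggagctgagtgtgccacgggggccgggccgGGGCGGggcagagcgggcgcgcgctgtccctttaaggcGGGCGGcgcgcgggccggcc

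The Fzd4, Fzd7 and Gsk3b windows lay wholly within the accessible region, and 147 of the 250 bases of the Axin2 window did. Both motifs were searched on both strands, and neighbouring GC boxes may overlap. TCAAAG occurred in the Gsk3b window, ending 71 bases before the start, and in the Fzd1 window, ending 236 bases before it. Of the 250 bases of the Fzd1 window 211 lay within the accessible region, and its TCAAAG lay outside that region. TCAAAG is present in 13.8% of the 32851 RefSeq promoter windows of this length. It did not occur in the Fzd4, Fzd7, Axin2 or Tcf7l2 windows, which says only that these letters are not there. GGGCGG occurred 7 times in the Fzd4 window, 6 times in Fzd7, 2 times in Axin2 and 6 times in the window of the outer Tcf7l2 start, and 32.7% of all windows hold it in any number. The letters TGANTCA (AP-1) and CAGCTG (an E-box of the myogenic type) occurred in none of these windows, against 6.75% and 13.0% of all. The motif shares were taken over all windows and not over those of genes with a promoter region. CpG pairs numbered 25 for Fzd4, 17 for Fzd7, 15 for Gsk3b, 24 for Axin2, 12 for Fzd1 and 30 for Tcf7l2. The median was 16 over the 9477 windows of genes with a promoter region in the table, and 6 over all windows.

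Of the 10 genes, the promoter of Fzd4 alone passed the test, as lower in mdx (1.51-fold) on the deposited scaling. This count of 1 was 0 with promoter medians set equal or after cyclic loess and 6 with distal medians set equal. Over all tested regions the counts in that order were 1387 on the deposited scaling, then 1980, 2245 and 4687. On the deposited scaling 0 of the 11 regions rose. The test was limma on log2(value + 1) over all 33161 regions that reached 10 scaled reads in 2 or more libraries, with Benjamini-Hochberg adjustment and a threshold of 0.05. Log2 fold changes, or log2 differences, are mdx minus wild type on that scale. The test called 3.3% of all tested regions higher and 0.881% lower, and 0.691% of promoter regions higher and 1.73% lower, and the members' count of 1 in 10 promoter regions rests on a single region. The 10 promoter regions had log2 fold changes from -1.45 to -0.20 with a median of -0.40, against the promoter median of -0.25, and 9 of the 10 lay below that median. All 10 lay below 0, as did 74.6% of promoter regions. In 8 of the 10, both mdx libraries lay below both wild type libraries, against 43.5% of promoter regions. That share was 70.9% among promoter regions with a mean of at least 500 scaled reads, a group chosen after the values were seen. The promoters of Fzd1, Fzd4, Fzd7 and Gsk3b belong to that group. The members were chosen with earlier results of these data known. At an unadjusted p under 0.05 there were 5 member promoter regions, those of Fzd4, Fzd7, Gsk3b and Apc and the smaller region of Axin2, against 21% of promoter regions. Without the smaller Axin2 region, which reached the filter through the wild type libraries alone, these counts were 7 of 9 without overlap and 4 of 9 at an unadjusted p under 0.05.

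**Figure D1:**
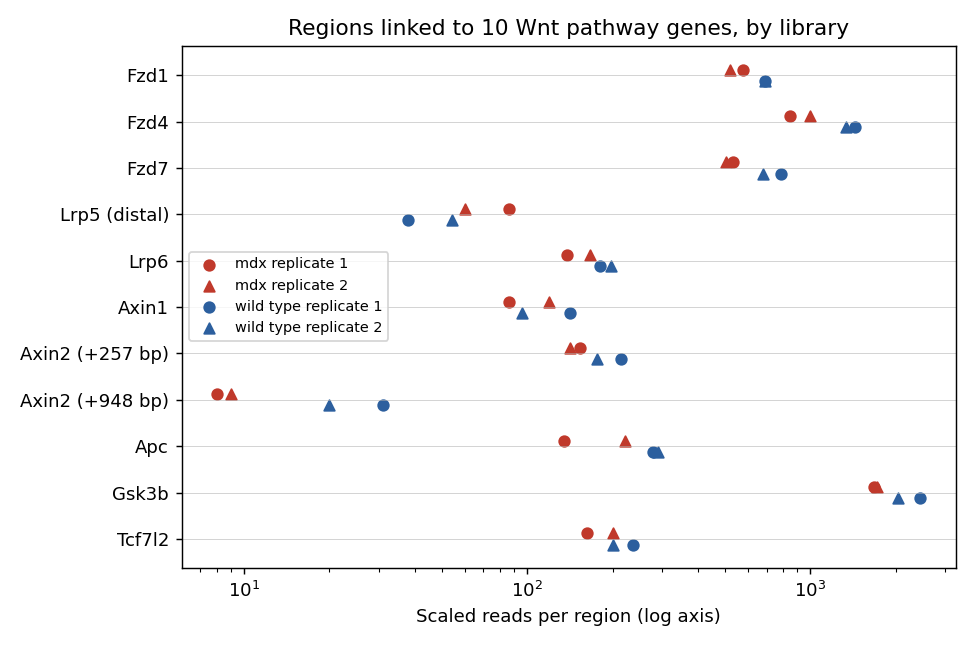
Scaled reads per region (horizontal log axis) at the 11 regions linked to the 10 genes (rows), with 1 point per library, mdx in red and wild type in blue. Both mdx libraries lie below both wild type libraries in 8 regions and above them at the Lrp5 region, and the groups meet or overlap at Axin1 and Tcf7l2.

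Among the receptors, Fzd4, which binds Wnt ligands and also norrin, had the clearest difference. Its promoter region, 1216 bp wide on chromosome 7 from 89403537 to 89404753, is centred 210 bp upstream of the deposited start. It held 850 and 995 scaled reads in mdx, against 1443 and 1331 in wild type. The 2 mdx values lay below both wild type values, with means of 922.5 ± 102.5 in mdx and 1387.0 ± 79.2 in wild type (SD, n = 2 per group). The log2 difference was -0.59 (SE 0.14, 95% interval -0.90 to -0.29, adjusted p = 0.038 in limma), or -0.35 relative to the promoter median. With the promoter medians of the libraries set equal it was -0.39 and did not pass (adjusted p = 0.054 in limma). After cyclic loess, which removes a trend of the difference with the level, it was -0.25 and did not pass (adjusted p = 0.199 in limma), nor did it with no filter on low values (0.0725) or without any 1 of the 4 libraries (log2 differences from -0.70 to -0.48, in fits that called no region in the whole table). Among promoter regions with a mean of at least 500 scaled reads, a group chosen after the values were seen, 5.54% were called lower.

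Fzd7, a receptor through which Wnt7a acts on satellite cells, had a promoter region of 1007 bp on chromosome 1 from 59481526 to 59482533. Its scaled reads were 531 and 503 in mdx and 788 and 679 in wild type, so the groups did not overlap. The log2 difference was -0.50 (SE 0.16), or -0.25 relative to the promoter median, and did not pass (adjusted p = 0.0887 in limma). The deposited Fzd7 start lies 277 bp downstream of the RefSeq start. Fzd1, a close relative of Fzd7, had a region of 1013 bp on chromosome 5 from 4757414 to 4758427. It held 578 and 519 scaled reads in mdx against 690 and 689 in wild type, again without overlap. Its log2 difference of -0.33 (SE 0.15) did not pass (adjusted p = 0.223 in limma) and lay 0.09 below the promoter median.

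The other members of the frizzled family give the context of these receptors, a grouping made after the values were seen. All 10 mouse frizzled genes had a promoter region, 11 in all because Fzd8 had a pair. Their log2 fold changes had a median of -0.35, against -0.25 over all tested promoter regions. Of the 11, 10 lay below 0, as did 74.6% of promoter regions, and 1 lay above. Fzd4 was the 1 that passed on the deposited scaling, where 2.42% of promoter regions were called in either direction. Per kb of region, Fzd4 (1141 scaled reads per kb in wild type), Fzd5 (1136), Fzd7 (728) and Fzd1 (681) held the highest levels of the family, and Fzd6 (76.0) the lowest. Fzd5 resembled Fzd7 in its difference, at -0.50 (adjusted p = 0.0915 in limma). The Fzd8 pair differed in sign: the region upstream of the start was at 0.42 (281 and 306 scaled reads in mdx against 215 and 223 in wild type, adjusted p = 0.22 in limma) and the one inside the gene at -0.10.

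The co-receptors Lrp5 and Lrp6, single-pass proteins related to the low-density lipoprotein receptor, did not pass. The Lrp6 promoter region, 857 bp on chromosome 6 from 134566482 to 134567339, held 138 and 167 scaled reads in mdx, against 181 and 198 in wild type. These values did not overlap, but the log2 difference of -0.32 (SE 0.23) has a 95% interval from -0.81 to 0.17 (adjusted p = 0.433 in limma). It stood at -0.071 relative to the promoter median, and at -0.18 without mdx replicate 1. Lrp5 had no linked promoter region, and its 1 region lies 5128 bp downstream of the start inside the gene, on chromosome 19 from 3681221 to 3681651. It held 86 and 60 scaled reads in mdx, against 38 and 54 in wild type. Here both mdx libraries were the higher ones, as at 29.4% of distal regions linked to a gene. The log2 difference of 0.65 (SE 0.35) did not pass (adjusted p = 0.284 in limma), and it was 0.40 without mdx replicate 1 and 0.41 without wild type replicate 1. The test called 2.77% of such regions higher.

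In the destruction complex, Gsk3b, the kinase that phosphorylates beta-catenin, had the most accessible promoter of the 10 genes. Its region of 1450 bp on chromosome 16 from 38088265 to 38089715 held 1674 and 1719 scaled reads in mdx, against 2446 and 2038 in wild type. The groups did not overlap, and the log2 difference was -0.40 (SE 0.13, adjusted p = 0.0941 in limma), or -0.15 relative to the promoter median. After cyclic loess the value was 0.013, on the other side of 0. Among promoter regions with a mean of at least 500, to which Gsk3b, Fzd1, Fzd4 and Fzd7 belong, 70.9% had both mdx libraries below both wild type libraries.

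Apc, the scaffold whose loss stabilises beta-catenin, had a promoter region of 666 bp on chromosome 18 from 34220754 to 34221420. The scaled reads were 135 and 222 in mdx and 279 and 290 in wild type. Both mdx libraries were low, and mdx replicate 1 was the lower of them by a wide margin. The log2 difference was -0.71 (SE 0.25, adjusted p = 0.114 in limma), or -0.47 relative to the promoter median. Leaving out mdx replicate 1 gave -0.36, and leaving out mdx replicate 2 gave -1.07.

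Axin1, the constitutive scaffold of the complex, had a region of 685 bp on chromosome 17 from 26138386 to 26139071, where the groups overlapped. It held 86 and 119 scaled reads in mdx, against 142 and 96 in wild type, for a log2 difference of -0.20 (SE 0.29, adjusted p = 0.717 in limma), or 0.041 relative to the promoter median. Axin1's value was 0.027 without mdx replicate 1 and 0.075 without wild type replicate 1. The RefSeq gene starts 7471 bp upstream of the deposited Axin1 start.

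Axin2, the inducible counterpart of Axin1 and a feedback inhibitor of the pathway, had a pair of regions on chromosome 11. Both were centred downstream of the deposited start, which the larger one spanned. The larger one, 808 bp from 108920202 to 108921010, held 153 and 142 scaled reads in mdx, against 215 and 176 in wild type, for a log2 difference of -0.40 (SE 0.23, adjusted p = 0.319 in limma), or -0.15 relative to the promoter median. It was -0.25 without wild type replicate 1. The smaller one, 158 bp from 108921218 to 108921376, held 8 and 9 scaled reads in mdx, against 31 and 20 in wild type. These are 6 and 8 recovered reads in mdx and 25 and about 41 in wild type. Its log2 difference of -1.45 (SE 0.55), or -1.20 relative to the promoter median, was the largest of the members in size and did not pass (adjusted p = 0.146 in limma). It entered the test through the wild type libraries alone, since the filter asks for a value of at least 10 in 2 libraries, so a difference in this direction was built in. Leaving out the region with the few reads, the member promoters ran from -0.71 to -0.20.

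Tcf7l2, the TCF/LEF factor that carries beta-catenin to its targets, had a promoter region of 529 bp on chromosome 19 from 55741374 to 55741903. It held 163 and 200 scaled reads in mdx, against 237 and 200 in wild type, so the groups met at 200. The log2 difference of -0.27 (SE 0.22) lay 0.023 below the promoter median (adjusted p = 0.503 in limma). It was -0.12 without mdx replicate 1, -0.15 without wild type replicate 1 and -0.42 without mdx replicate 2. Of the other family members, Tcf7 was at 0.15 (adjusted p = 0.852 in limma) and Tcf7l1 at -0.46 (0.212), and Lef1 had no linked region. The sign of Tcf7 turned after cyclic loess (-0.020) and when distal medians were set equal (-0.18).

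**Figure D2:**
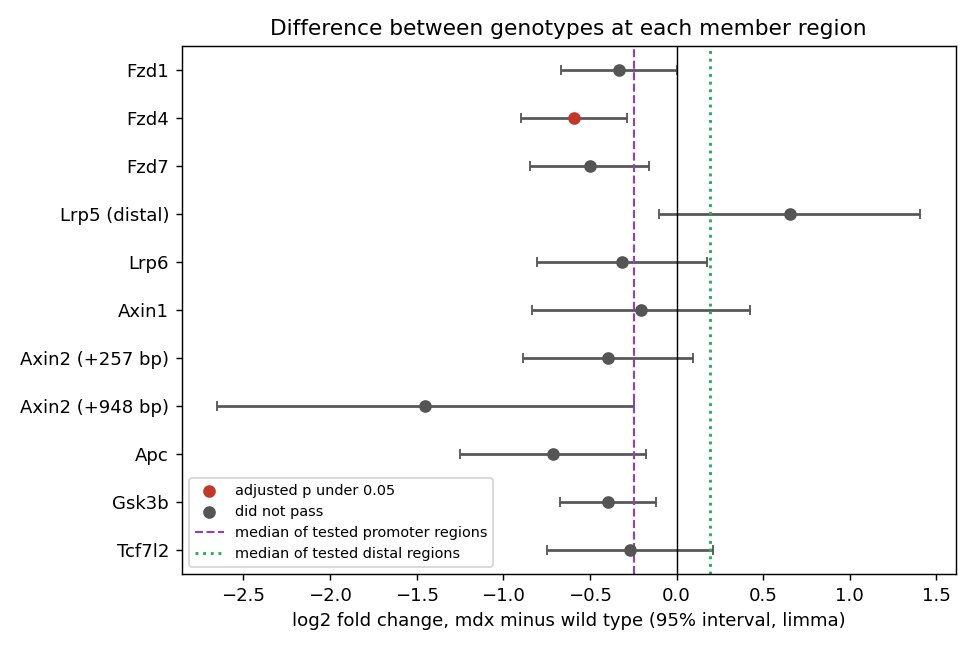
Log2 fold change of mdx minus wild type (horizontal axis) with its 95% interval from limma at each of the 11 regions, and dashed and dotted lines at the medians of tested promoter regions (-0.25) and distal regions (0.19). Fzd4, at -0.59, is the region that passed, and Lrp5, at 0.65, is the region above 0.

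Levels per kb of region ordered the promoters in the wild type libraries as follows. Gsk3b came first (1406 to 1687 scaled reads per kb over the 2 libraries), then Fzd4 (1095 to 1187), Fzd7 (674 to 783) and Fzd1 (680 to 681), the last pair with overlapping ranges. Apc (419 to 435) and Tcf7l2 (378 to 448) followed, also overlapping each other. The larger Axin2 region (218 to 266) overlapped Lrp6 (211 to 231), and Axin1 (140 to 207) overlapped the smaller Axin2 region (127 to 196). Gsk3b and Fzd4 thus stood apart from each other and from all the rest in wild type. Averaged over the 4 libraries, Gsk3b lay above 99.5% of promoter regions per kb and Fzd4 above 97.6%, whereas Axin1 lay above 35.4% and Lrp6 above 46.3%. In mdx the ranges of Gsk3b (1154 to 1186) and Fzd4 (699 to 818) likewise did not meet those of the other members.

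Accessible regions with no deposited gene were looked up inside the 10 genes by RefSeq position, and 9 were found, in Lrp6 (4), Tcf7l2 (3), Lrp5 (1) and Apc (1). All 9 were tested and 0 passed in limma, which called 5.09% of distal regions, with 1 at an unadjusted p under 0.05. They were weak, the strongest averaging 71.8 scaled reads. The median of their log2 differences was 0.45 (0.19 over all distal regions), and 2 of the 9 lay below 0, against 38.3% of distal regions. At 1 of the 9, inside Apc, both mdx libraries lay below both wild type libraries, against 3666 of 21868 distal regions. At 3 of the 9 both mdx libraries lay above both wild type libraries, against 35.3% of distal regions. The one with the smallest p lies 87.2 kb into Lrp6, on chromosome 6 from 134479544 to 134479810, and held 53 and 45 scaled reads in mdx, against 29 and 21 in wild type (log2 fold change 0.96, SE 0.40, adjusted p = 0.174 in limma). A region 65.7 kb into Tcf7l2 held 22 and 20 in mdx and 11 and 9 in wild type (adjusted p = 0.295). A further 9 regions with no deposited gene lay within 50 kb of the genes' ends, with a median of -0.17 and 0 passing. At Lrp6 and Tcf7l2 the promoter value and the median of the regions inside the gene differed in sign (-0.32 and 0.37 for Lrp6, -0.27 and 0.45 for Tcf7l2), as the promoter and distal medians of the whole table do. At Apc, with 1 region inside the gene, both values lay below 0 (-0.71 at the promoter and -0.28 inside). These differences were not tested.

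**Figure D3:**
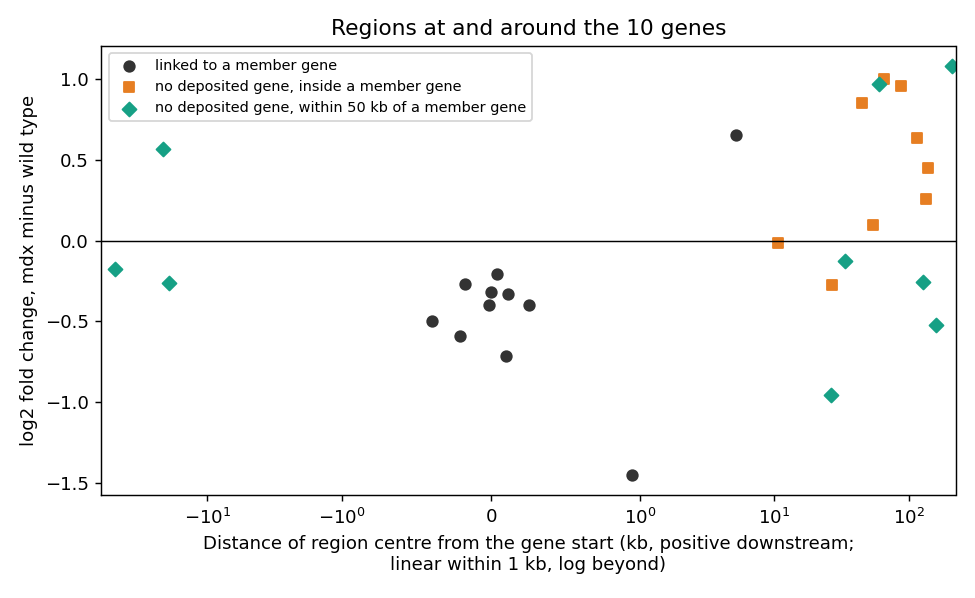
Log2 fold change of mdx minus wild type (vertical axis) by distance of the region's centre from the deposited gene start in kb (horizontal axis, linear within 1 kb and log beyond), with 1 point per region at and around the 10 genes. The 10 promoter regions lie below 0, and 7 of the 9 regions inside the genes lie above it.

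The rest of the pathway was read from a list of 103 other genes in 6 roles, of which 66 had a promoter region, 69 regions in all. Of the 67 tested, 0 rose, 1 fell and 66 did not pass, so 1 of 67 was called, against 2.42% of all promoter regions in either direction. They had a median log2 difference of -0.28, close to the promoter median of -0.25, and 33 of 67 had both mdx libraries below both wild type libraries, against 43.5% of promoter regions. The region that fell is the promoter of Daam1, a formin that links Dishevelled to the actin cytoskeleton in the planar polarity branch. It held 269 and 300 scaled reads in mdx, against 561 and 465 in wild type (log2 fold change -0.84, SE 0.18, 1.80-fold, adjusted p = 0.0272 in limma). The call ended with no filter on low values, with the log2 value still at -0.84 (adjusted p = 0.055). Without any 1 of the 4 libraries it ended too, in fits that called no region at all, and the value ran from -0.98 to -0.71. The call held with promoter medians set equal (-0.65, adjusted p = 0.0374) and after cyclic loess (-0.67, adjusted p = 0.0209).

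By role, the genes for ligands and their secretion had the lowest median, -0.53 over 10 tested promoter regions. Its lowest member was Wnt5a, a ligand of the non-canonical branches, at 0 and 6 scaled reads in mdx, against 10 and 11 in wild type, a region too low to give a fold. It reached the filter through the wild type libraries alone, so its direction was built in, and without it the median of the list was -0.42. The next lowest, named after its values were seen, was Wnt4, a ligand, at -1.47 (19 and 14 scaled reads in mdx against 51 and 43 in wild type, adjusted p = 0.0718 in limma). Its highest was a region of Wls, the carrier that brings Wnt proteins to the cell surface, at 0.08, and that sign turned with distal medians set equal. The other receptors and the genes of receptor turnover had a median of -0.35 over 15 regions. They ran from Ryk, an atypical Wnt receptor, at -1.01 (57 and 74 scaled reads in mdx against 132 and 131 in wild type, adjusted p = 0.0593 in limma) to Lgr5, an R-spondin receptor, at 0.83 (29 and 31 against 18 and 15, adjusted p = 0.304).

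Extracellular inhibitors had a median of -0.15 over 7 regions, from Sfrp2 at -0.67 to Frzb at 0.56, both secreted frizzled-related proteins. The Frzb value was -0.64 without wild type replicate 1, whose 5 scaled reads stood against 31 in replicate 2, and the Sfrp2 value was 0.038 without mdx replicate 1. Cytoplasmic transducers had a median of -0.23 over 16 regions, from Csnk1a1, the casein kinase that primes beta-catenin for Gsk3b, at -0.72 (173 and 152 in mdx, 321 and 222 in wild type, adjusted p = 0.0963 in limma) to Nkd2 at 0.52 (adjusted p = 0.602). Nuclear effectors had a median of -0.40 over 11 regions, from the corepressor Tle3 at -0.67 (50 and 48 in mdx, 82 and 75 in wild type, adjusted p = 0.218) to Tcf7. The planar polarity genes had a median of -0.22 over 8 regions and spread widely, from Daam1 to Vangl1, a core polarity protein, at 0.89 (116 and 109 in mdx, 56 and 65 in wild type, adjusted p = 0.0889 in limma).

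**Figure D4:**
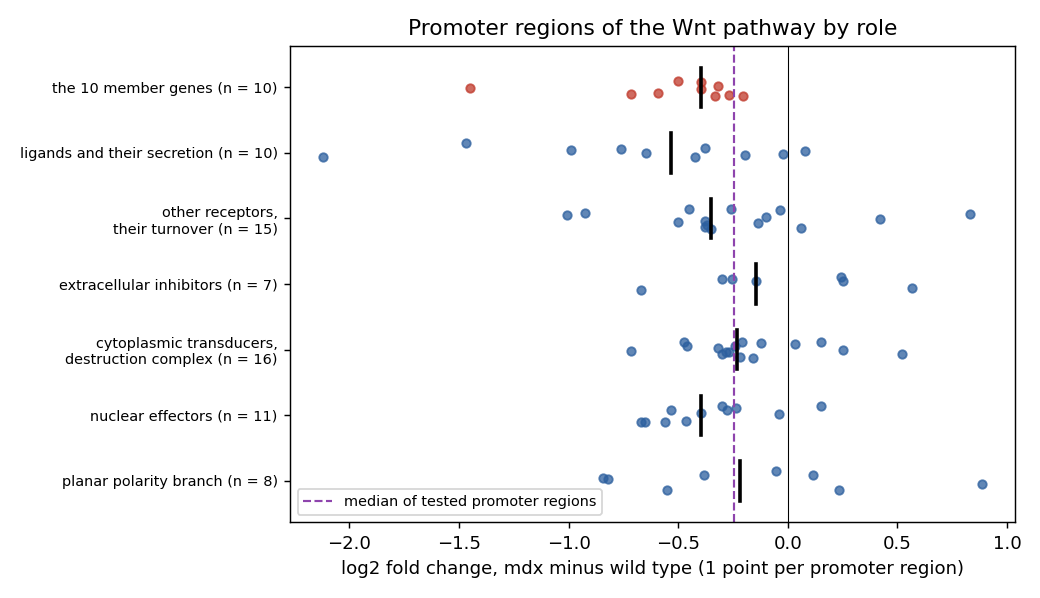
Log2 fold change of mdx minus wild type (horizontal axis) at tested promoter regions, 1 point per region, for the 10 member genes and the 6 role lists of other pathway genes (rows), with black bars at each row's median and a dashed line at the promoter median of -0.25. The median is -0.40 for the members and runs from -0.53 (ligands) to -0.15 (extracellular inhibitors) in the lists.

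The promoter regions whose values over the 4 libraries were most like those of Fzd4, by the Euclidean distance of log2(value + 1) centred on each region's mean among 10138 candidates, were those of Creb1 (0.016), Zc3hav1 (0.027) and Rbm45 (0.030). Creb1, a transcription factor, held 685 and 796 scaled reads in mdx, against 1171 and 1078 in wild type. This order describes the values only.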

How the data were processed

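ATAC-seq values in 4 libraries of quiescent satellite cells were analysed, 2 mdx and 2 wild type, grouped by their titles. The submitters' processing notes name the build mm10 and the tools MACS2 2.1.0, STAR 2.5.3a, Trimmomatic 0.33, Picard 2.9.0, DESeq and DESeq2. How each was used, and how duplicates, the Tn5 offset and region calling across libraries were handled, is not stated in the sources used here. What the authors deposited is a whole number per region and library, treated as a score, because the values show reads multiplied by a factor and rounded. Whole numbers up to 400 that never occur include all 111, 56 and 73 that factors of 1.382, 1.162 and 1.222 skip in mdx replicates 1 and 2 and wild type replicate 1. In wild type replicate 2 the factor is 0.492, so its recovered reads are approximate. The deposited share of a region within its gene (a fraction) was left unused. Coordinates are as deposited, and whether starts count from 0 or 1 is not stated.

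Computed here: limma 3.58.1 (R 4.3.3) with a trended prior variance on log2(value + 1), with a group term and no other, over regions reaching 10 in 2 or more libraries, with Benjamini-Hochberg adjustment over them. Folds are on the log2(value + 1) scale, which understates low regions. The script was tested on simulated data. Members and lists were chosen with earlier results of these data known. Named genes are all members, other pathway genes that passed, the highest and lowest promoter region of each role list, and the 3 promoters most like the member with the smallest p; others are named as chosen after their values were seen, among them Fzd5, Fzd6, Fzd8, Tcf7l1 and Wnt4. Alternatives covered scaling, trend, filter, pseudocount, threshold, replicate number, recovered reads and leaving out each library.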

Additional observations from a re-analysis of the deposited data

How the results depend on the processing

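Calls at adjusted p under 0.05 (limma) numbered 1 among the 11 member regions, 1 among the other pathway promoters and 1387 among all tested regions. In that order they became 0, 3 and 2245 after cyclic loess, 6, 15 and 4687 with distal medians set equal, 0, 0 and 458 with no filter on low values, and 3, 6 and 3372 at a threshold of 0.10. With promoter medians set equal the members had 0, of 1980 calls in all. A mean value of at least 50 gave 3 member and 5 other pathway calls, of 1936 in all among 17549 tested regions. A pseudocount of 5 gave 2 other pathway calls, of 1959 in all. Scaling by totals and limma-voom on recovered reads left 1 member call, of 2047 and 2008 calls in all. The share of calls that were higher in mdx was 78.9%, and 92.0%, 26.1%, 62.6% and 88.2% with promoter medians set equal, distal medians set equal, a mean value of at least 50 and no filter. The median of all regions moved from -0.01 to 0.19 and -0.35 with promoter and distal medians set equal.

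The replicate block gave 1 member call, 3 other pathway calls and 2761 in all. Same-numbered libraries deviated with a correlation of -0.11 across regions. With 2 libraries per group the crossed correlation is by construction the same number with its sign turned (0.11). These values therefore cannot tell whether the numbers pair the libraries. The crossed replicate block, added after seeing the data, gave 4, 10 and 5461.

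Leaving out any 1 library gave 0 calls in all 3 counts; such fits assume that the lone library varies like the other group, and they called nothing in the whole table (2305 to 5569 regions had an unadjusted p under 0.05). Over these fits the log2 value ran from -0.70 to -0.48 for Fzd4, from -0.48 to 0.075 for Axin1, from -0.14 to 0.29 for Wls, from -1.38 to 0.038 for Sfrp2, from -0.64 to 1.77 for Frzb and from -0.20 to 0.51 for Tcf7. Signs also turned for Gsk3b (0.013) and Tcf7 (-0.020) after cyclic loess, and for Wls (-0.26) and Tcf7 (-0.18) with distal medians set equal; the cause was not tested. The smaller Axin2 region rests on 6 and 8 recovered reads in mdx.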
